A study of Homo sapiens with 30 samples.

Results

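The regions described here were open chromatin in posterior-derived midbrain cells (pNE_M) and in none of 9 other cell populations derived from the same human embryonic stem cell line. Peaks of all 10 deposited lists on chromosomes 1 to 22 were merged where they overlapped by at least 1 bp, which gave 476170 merged regions. A list was called open at a region where it had a peak. Of the 195120 regions open in pNE_M, 17167 were open in pNE_M alone. They made up 8.80% of the pNE_M regions and 3.61% of all merged regions, and they are called pNE_M-only regions below. The members were thus chosen by the presence of peaks in all 10 lists, and these counts describe the selection and are not a test of it.

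The cells were wild-type H1, an established line of human embryonic stem cells, and openness was measured by OmniATAC-seq, in which a transposase cuts accessible DNA. There were 10 groups of 3 biological replicates (30 libraries): undifferentiated cells (hPSC, day 0), definitive ectoderm (DE, day 1), anterior and posterior neural ectoderm (aNE and pNE, day 2), and 6 populations of day 4, which were aNE or pNE cells moved into telencephalon (T), midbrain (M) or hindbrain (H) medium. DE cells had received A8301, Trametinib, C59 and LDN193189 in CDM2 medium. The aNE medium held A8301, LDN193189, C59 and Thiazovivin. The pNE medium held A8301, LDN193189, Thiazovivin, 50 nM of the retinoic acid receptor agonist TTNPB, 20 ng/mL FGF2 and the tankyrase inhibitor XAV939, so all 3 day 4 populations of pNE origin had been exposed to a retinoid receptor agonist. The composition of the midbrain medium is not given in the sources used here. Cells for day 4 were plated at 75000 per square cm in the anterior and 150000 in the posterior protocol, so origin and plating density cannot be told apart. Each group has 1 list, without values per library, so no difference below has a replicate test. The intervals given are 95% Wilson intervals that cover counting error only.

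In the neural tube, retinoic acid and FGF signals give neural cells a posterior character and open the HOX gene clusters from their anterior-acting end towards their posterior-acting end. The midbrain lies in front of the HOX-expressing hindbrain, expresses OTX2, and is bounded by the isthmus, a signalling centre that secretes FGF8 and WNT1. Distal open regions are often enhancers and differ between cell types more than promoters do.

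Promoter sequences of 4 genes are shown because a pNE_M-only region overlapped the window upstream of a start of each, which was uncommon. The regions at HOXC4 and GDF2 also covered the start, and those at TP63 and COL17A1 lay upstream of it. Each is the 250 bases before a RefSeq start (GRCh38.p14), written 5′ to 3′ on the gene's strand. Capitals mark the bases inside the pNE_M-only region, and lower case marks bases outside it. The genes were chosen after their values were seen. HOXC4 (chr12:54016638-54016887, plus strand) is a homeobox gene of posterior identity. This start is shared with HOXC5, and the body of HOXC6 begins at the same base. TP63 (chr3:189631139-189631388, plus strand, a start inside the gene) encodes a transcription factor of epithelial progenitors. COL17A1 (chr10:104085881-104086130, minus strand) encodes a hemidesmosome collagen, and GDF2 (chr10:47322204-47322453, plus strand) encodes the ligand BMP9.
HOXC4: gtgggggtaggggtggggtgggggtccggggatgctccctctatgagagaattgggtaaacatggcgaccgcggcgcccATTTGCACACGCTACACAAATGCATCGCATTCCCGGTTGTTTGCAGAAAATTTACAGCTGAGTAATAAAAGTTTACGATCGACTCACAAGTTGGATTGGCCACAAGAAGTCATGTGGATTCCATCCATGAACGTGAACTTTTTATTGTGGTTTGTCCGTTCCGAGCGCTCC
TP63: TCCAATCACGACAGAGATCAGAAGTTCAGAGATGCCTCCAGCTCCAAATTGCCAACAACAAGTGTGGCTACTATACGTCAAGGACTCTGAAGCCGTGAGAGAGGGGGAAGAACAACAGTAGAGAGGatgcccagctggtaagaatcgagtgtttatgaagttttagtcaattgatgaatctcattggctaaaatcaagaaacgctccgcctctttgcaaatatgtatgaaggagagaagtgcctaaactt
COL17A1: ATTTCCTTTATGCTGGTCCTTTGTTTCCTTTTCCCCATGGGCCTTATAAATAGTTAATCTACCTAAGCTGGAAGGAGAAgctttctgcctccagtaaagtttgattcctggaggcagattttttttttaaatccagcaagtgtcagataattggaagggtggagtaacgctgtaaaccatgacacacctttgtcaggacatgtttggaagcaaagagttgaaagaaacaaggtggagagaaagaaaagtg
GDF2: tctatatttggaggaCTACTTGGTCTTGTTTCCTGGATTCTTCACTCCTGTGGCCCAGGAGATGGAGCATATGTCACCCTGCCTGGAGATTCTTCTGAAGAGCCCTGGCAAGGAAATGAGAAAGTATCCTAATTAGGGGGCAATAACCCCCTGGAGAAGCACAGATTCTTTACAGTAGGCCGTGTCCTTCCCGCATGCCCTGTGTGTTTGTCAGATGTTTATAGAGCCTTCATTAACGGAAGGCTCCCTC
The pNE_M-only region covered 171 of the 250 bases at HOXC4, 126 at TP63, 79 at COL17A1 and 235 at GDF2. In the HOXC4 window the motifs GGAATG (TEAD) and CAGCTG (E-box) lay inside the covered part, searched on both strands. In the GDF2 window TAATTA (homeodomain) and CAGATG (E-box) lay inside it. The CAGCTG of the TP63 window lay outside the covered part.

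The number of regions open in 1 list alone differed widely between lists. It was 21899 for hPSC (11.35% of the list's regions), 26012 for DE (11.65%), 2431 for aNE (1.60%) and 3972 for pNE (2.13%). Among the day 4 lists of anterior origin it was 6155 for aNE_T (3.39%), 6117 for aNE_M (3.08%) and 8683 for aNE_H (4.69%). Among those of posterior origin it was 16390 for pNE_T (8.33%), 17167 for pNE_M (8.80%) and 50360 for pNE_H (17.34%). The pNE_M list held more exclusive regions than the aNE_M list, although the lists were close in length, at 209967 and 211358 peaks. The pNE_H list was the longest, at 302355 peaks, and aNE the shortest, at 162041. Without the pNE_H list the rule took 28104 regions in place of 17167, and no other list moved the number by a factor of 1.5 when left out. Regions open in a single list made up 1.28% of all merged regions for aNE_M, 3.44% for pNE_T and 10.6% for pNE_H, beside 3.61% for pNE_M.

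**Figure D1:**
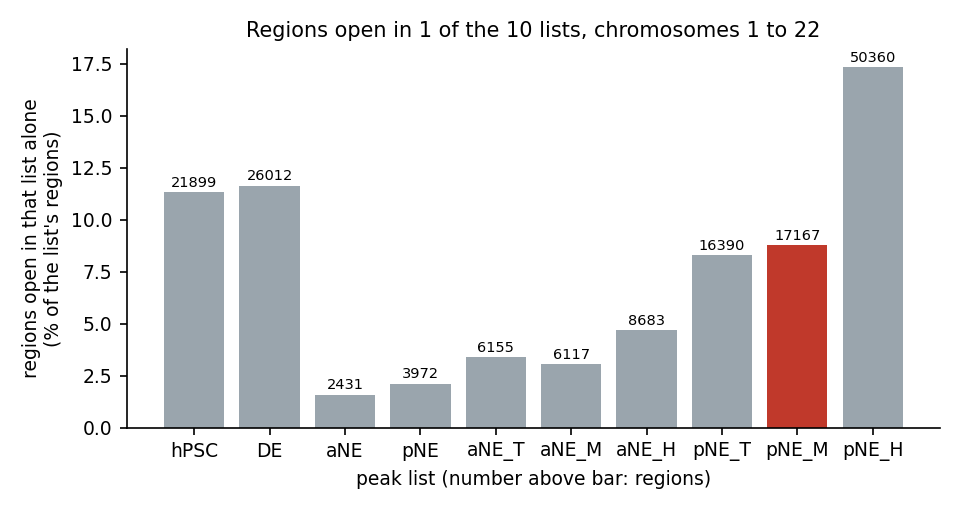
Share of each list's regions that were open in that list alone, in percent, with the number of regions above each bar, for the 10 lists on chromosomes 1 to 22. The pNE_M bar stands at 8.80% (17167 regions), next to pNE_T at 8.33% and below pNE_H at 17.34%.

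Regions just outside the rule, open in pNE_M and in exactly 1 other list, numbered 14271. The other list was pNE_H for 9906 of them (69.4%), pNE_T for 1140, aNE_H for 870, DE for 656, aNE_M for 510, hPSC for 502, aNE_T for 369, pNE for 243 and aNE for 75. The population that shared most such regions with pNE_M was therefore of the same origin and in another medium, and the list of that population was also the longest. The pNE_M-only regions had a median width of 166 bp (quartiles 128 and 228), against 268 bp for the merged regions shared with 1 other list.

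Every pNE_M-only region was a single pNE_M peak, and most were narrow. The narrowest peak of the pNE_M list was 114 bp, and 3838 of the 17167 (22.36%) lay within 10 bp of that minimum. The median of all pNE_M peaks was 267 bp, and the merged regions that pNE_M shared with other lists had a median of 589 bp. The median width of pNE_M peaks was 166 bp in regions open in 1 list, 190 bp in regions open in 2, 253 bp in regions open in 9, and 416 bp in the 78808 regions open in all 10. Exclusive regions of the other lists were as narrow, with medians of 152 bp for aNE_M-only, 173 bp for pNE_T-only and 165 bp for pNE_H-only regions. A wide class of at least 500 bp held 511 pNE_M-only regions (2.98%), 651 pNE_T-only regions (3.97%), 1229 pNE_H-only regions (2.44%) and 6 aNE_M-only regions (0.098%). With the widest 50% of each list alone, 8265 regions met the rule. The part that the peak threshold played in these counts was not tested, since the lists carry no scores.

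**Figure D2:**
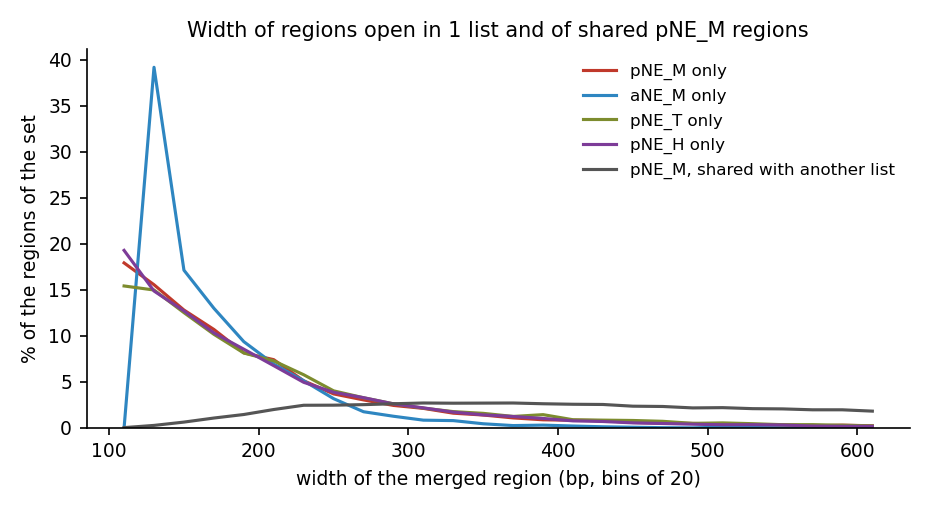
Distribution of region width in bins of 20 bp, as percent of each set, for the regions open in 1 list and for the merged regions that pNE_M shared with another list. The pNE_M-only curve is highest next to the narrowest peak width and has its median at 166 bp, while the shared regions have theirs at 589 bp.

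The pNE_M-only regions were mostly far from gene starts. Of the 16214 on the 21 chromosomes with listed RefSeq starts (chromosome 8 has none in the table used), 269 (1.66%, 1.47 to 1.87%) lay within 1 kb of a start. The share was 5.49% over all merged regions and 10.4% for the regions that pNE_M shared with other lists. It was 2.65% for aNE_M-only, 1.80% for pNE_T-only and 2.16% for pNE_H-only regions, so the low share was common to the exclusive regions. Of the pNE_M-only regions, 28.38% (27.69 to 29.08%) lay more than 100 kb from any listed start, against 20.93% of all merged regions, 22.02% of aNE_M-only, 24.50% of pNE_T-only and 27.98% of pNE_H-only regions. Bodies of protein-coding genes held 7637 (44.49%, 43.74 to 45.23%), against 50.05% of all merged regions and 51.10% of aNE_M-only regions. They held 47.86% of pNE_T-only and 45.23% of pNE_H-only regions, so each posterior-derived set lay below all merged regions. A further 13.91% of the pNE_M-only regions lay in a lncRNA gene alone. The share inside protein-coding genes changed little with width: regions under 150 bp lay there in 45.61% of cases and those of at least 500 bp in 43.64%. Exons, introns and UTRs were not separated, because the annotation used gives gene bodies.

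Many pNE_M-only regions had a peak of another list close by. The median distance to the nearest peak of any other list was 1542 bp, 6770 (39.44%, 38.71 to 40.17%) had one within 1 kb, and 746 (4.35%) had one within 100 bp. A peak of another list within 1 kb was found for 53.69% of aNE_M-only, 39.93% of pNE_T-only and 40.55% of pNE_H-only regions. The wider pNE_M-only regions were more isolated, with 41.19% under 150 bp and 27.98% of those of at least 500 bp having such a neighbour. At the other end, 1012 (5.90%) had no peak of another list within 10 kb. The share was 3.17% for aNE_M-only, 4.94% for pNE_T-only and 5.90% for pNE_H-only regions, so it did not set pNE_M apart from pNE_H. The pNE_H list came within 1 kb of 27.79% of the pNE_M-only regions, aNE_M of 17.18%, DE of 16.72%, aNE_H of 16.61%, pNE_T of 16.28%, pNE of 15.58%, aNE_T of 14.47%, hPSC of 14.18% and aNE of 11.54%. This order put the longest list first and the shortest last.

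**Figure D3:**
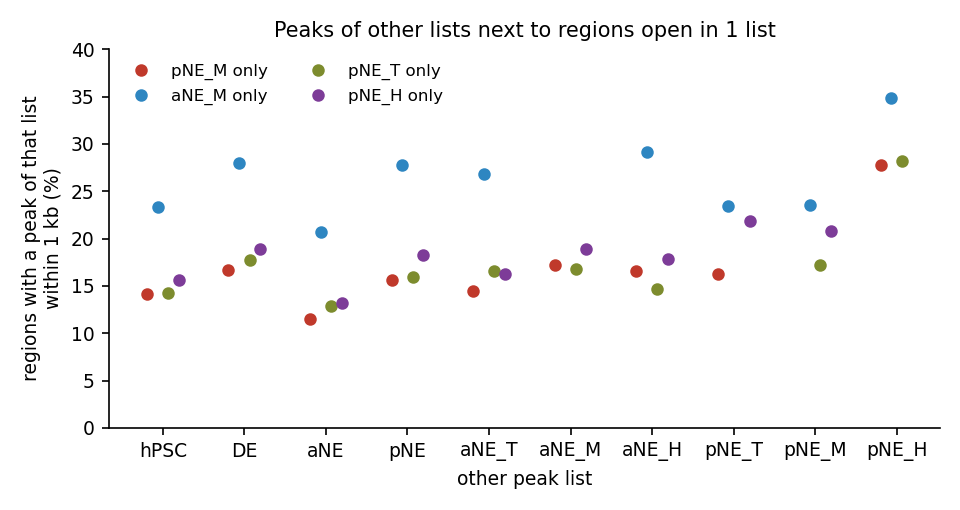
Percent of regions open in 1 list that had a peak of each other list within 1 kb, by other list, for pNE_M-only regions and the comparison sets. For pNE_M-only regions pNE_H stands highest at 27.79% and aNE lowest at 11.54%.

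The pNE_M-only regions were spread over all 22 autosomes at unequal shares. They made up 4.80% of the merged regions on chromosome 4 (1393 of 29049) and 4.39% on chromosome 13, and 1.49% on chromosome 19 (142 of 9560), 2.12% on chromosome 22 and 2.35% on chromosome 17. The pNE_H-only regions were also highest on chromosomes 13 (13.7%) and 4 (13.5%) and lowest on chromosome 19 (5.60%). The aNE_M-only regions hardly differed between these chromosomes, at 1.24% and 1.10%. Most pNE_M-only regions stood alone: 13759 (80.15%) had no other within 10 kb. Chains in which each was within 10 kb of the next numbered 173 with at least 3 regions, and together held 554 of them (3.23%).

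The chain with the most pNE_M-only regions, 7 of them, lay in the HOXC cluster, whose genes encode homeobox factors of posterior identity. It ran from 54006721 to 54029130 on chromosome 12 (22410 bp), over HOXC8, HOXC6, HOXC5 and HOXC4. Of the 15 merged regions within it, 11 were open in pNE_M, 6 in hPSC, 6 in DE, 5 in aNE, 5 in aNE_M, and 4 each in pNE, aNE_T, aNE_H, pNE_T and pNE_H. It held no region exclusive to aNE_M, pNE_T or pNE_H. The 7 pNE_M-only regions are closed in the other lists by the rule. Among the other 8 merged regions pNE_M had 4 open, as many as most other day 4 lists and fewer than hPSC and DE. Of the 7 regions, 4 lay together inside the overlapping bodies of HOXC4, HOXC5 and HOXC6, at chr12:54025660-54025801 (142 bp), chr12:54026162-54026380 (219 bp), chr12:54026722-54026918 (197 bp) and chr12:54028923-54029130 (208 bp). One, chr12:54011437-54011744 (308 bp), lay in HOXC8, and chr12:54016717-54016905 (189 bp) covered the start whose upstream sequence is printed above for HOXC4. The nearest peak of another list was 209 bp (pNE_T) and 210 bp (DE) from that start region, while the nearest pNE_H peak was 816 bp away.

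**Figure D4:**
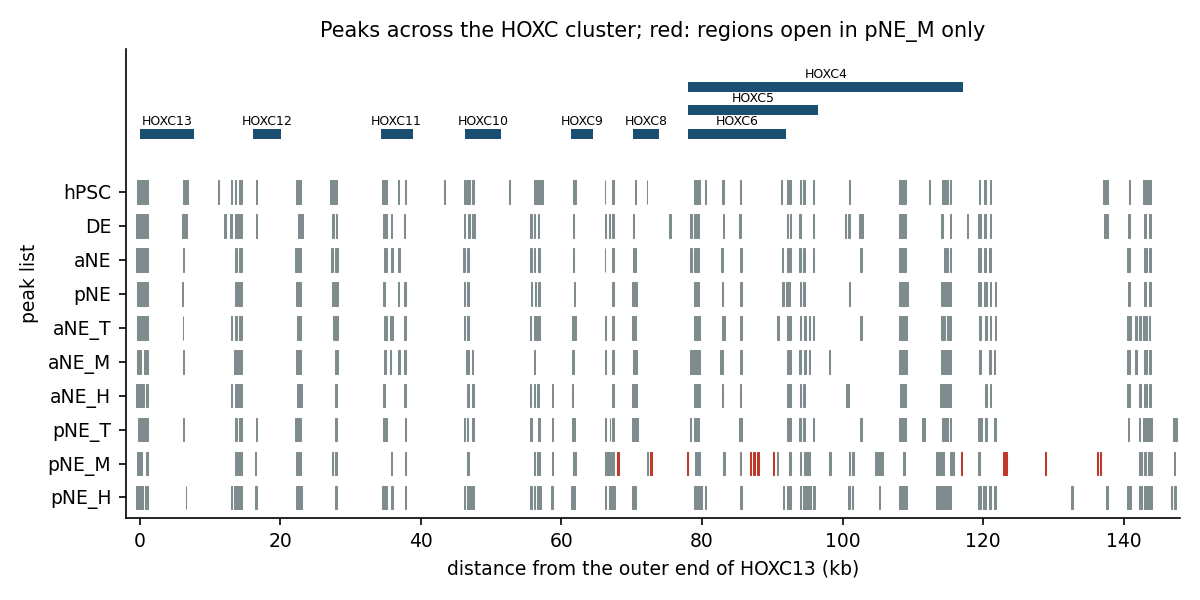
Peaks of the 10 lists across the HOXC cluster, by distance in kb from the outer end of HOXC13, with a row per list and the gene bodies drawn as bars. Red marks regions open in pNE_M only, and all peaks have a thin outline so that narrow ones can be seen. Of the 8 within the cluster, 7 lie in one stretch from just before HOXC8 into HOXC4, and 4 more lie beyond the end of HOXC4.

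Over the whole HOXC cluster, pNE_M and hPSC each had 35 open regions, DE and pNE_H 33, pNE_T 29, aNE and aNE_T 28, aNE_M 26, pNE 25 and aNE_H 24, of 57 merged regions. The cluster held 8 pNE_M-only regions (14.04%, 7.29 to 25.3%), 5 hPSC-only, 3 DE-only and 1 pNE_T-only region, and none exclusive to any of the other 6 lists. The other clusters held fewer pNE_M-only regions. HOXA had 2 of 48 merged regions, HOXB 5 of 81 and HOXD 4 of 47, while pNE_H-only regions numbered 6, 4 and 2. The 4 clusters together held 19 pNE_M-only regions of 233 (8.16%, 5.28 to 12.4%), 12 pNE_H-only, 3 pNE_T-only and 1 aNE_M-only region. A further 11 regions in the clusters were open in pNE_M and pNE_H and in no other list, of which 2 lay in HOXC. The clusters were chosen after their values were seen, so the shares are a description. Without the pNE_H list the share over the 4 clusters was 13.7%, against 6.50% over all regions. With the widest 50% of each list, 2 regions of HOXC met the rule, and 4 of the 8 had no peak of another list within 500 bp.

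Single regions in the other clusters included wide peaks. A 681 bp region at chr7:27155049-27155729 overlapped HOXA7, a homeobox gene of trunk identity, and had a peak of aNE_M 330 bp and of aNE 331 bp away. A 772 bp region at chr17:48580245-48581016 lay in HOXB3 and the lncRNA gene HOXBLINC, 297 bp from the hairpin of MIR10A, a microRNA gene of that cluster. In HOXD a 174 bp region at chr2:176156569-176156742 lay in HOXD3, 564 bp from a listed start.

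Counts near genes were taken over the gene body with 50 kb on each side. Counts of open regions there include the regions exclusive to a list. The pNE_M counts thus include the pNE_M-only regions, which are closed in every other list by the rule. Of 19126 protein-coding genes, 9068 (47.4%) had at least 1 pNE_M-only region in that window, so the presence of one near a gene is common. Among 30 midbrain and isthmus genes 16 (53.3%) had one. Their windows held 25 pNE_M-only regions of 1237 merged regions, or 2.02% (1.37 to 2.97%), which was 0.56 times the share over all merged regions. Without the pNE_H list it was 4.16%, against 6.50% over all regions. The same ratio was 0.94 for aNE_M-only, 0.87 for pNE_T-only and 0.62 for pNE_H-only regions. The pNE_M list had 572 open regions in these windows, fewer than aNE_M (639), hPSC (634), DE (679), pNE (592), aNE_T (629), aNE_H (593), pNE_T (623) and pNE_H (771), and more than aNE (532). An open region near a marker gene shows accessibility and not expression, so the midbrain label could not be checked from these lists.

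Genes that define the midbrain and its boundary had few pNE_M-only regions. EN1, a homeobox gene of the midbrain and isthmus, had 1 among 34 merged regions, with 15 regions open in pNE_M, 18 in aNE_M and 21 in pNE_H. OTX2, a homeobox gene of forebrain and midbrain, had 1 of 36, with 14 open in pNE_M and 17 in aNE_M. PAX2 had 2 of 68, LMX1B 1 of 58, LMX1A 1 of 70 and FGF8 1 of 25. EN2, PAX5, WNT1, CNPY1 and the hindbrain-side gene GBX2 had none. The counts for pNE_M and aNE_M at EN1, LMX1A (33 and 39) and LMX1B (30 and 39) were lower in pNE_M, and at FGF8 (15 and 12) higher. Within this list most pNE_M-only regions lay near MEIS2 (4 of 95), which encodes a TALE homeodomain cofactor, and MSX1 (3 of 38), a dorsal homeobox gene. SP5, a WNT target, BARHL1 and FGF18 had 2 each. At MEIS2 the number of open regions was 28 in hPSC, 33 in DE, 32 in aNE, 40 in pNE, 40 in aNE_T, 40 in aNE_M, 32 in aNE_H, 54 in pNE_T, 44 in pNE_M and 68 in pNE_H. The pNE_T and pNE_H counts were thus above those of the 3 day 4 lists of anterior origin. The pNE_M count includes its 4 exclusive regions, which are closed elsewhere by the rule. It exceeded the aNE_T and aNE_M counts by no more than these, so no such difference is read for pNE_M. The widest pNE_M-only region there, 494 bp at chr15:37143141-37143634, lay outside gene bodies. MSX1 had 21 open regions in pNE_M (its 3 pNE_M-only regions included), 20 in pNE_H, 13 in pNE_T, and 12 or 13 in the anterior-derived day 4 lists. In the earlier lists it had 18 in hPSC, 19 in DE, 13 in aNE and 12 in pNE. At MSX1 pNE_M exceeded hPSC and DE by no more than its pNE_M-only regions.

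The hindbrain and HOX genes held the highest share among the 13 gene lists with peaks as deposited. With a margin of 500 bp to other lists the share was 3.06%, against 2.69% over all regions. That was below axon guidance (3.26%) and surface ectoderm (3.17%) genes. At equal list length the share was 8.01% against 4.51% over all regions. Of 29 genes 24 (82.8%) had at least 1 pNE_M-only region, and 42 of 851 merged regions (4.94%, 3.67 to 6.60%) were pNE_M-only, 1.37 times the overall share. The ratio was 0.73 for aNE_M-only, 0.89 for pNE_T-only and 0.72 for pNE_H-only regions. The windows of neighbouring HOX genes overlap, and a region was counted once. Without the pNE_H list the share was 8.88%, against 6.50% over all regions. Without the HOX genes it was 3.41%, and without the HOXC genes alone 3.84%, close to the 3.61% of all regions. HOXC4 and HOXC5 each had the same 12 pNE_M-only regions in their windows (of 70 and 63 merged regions), beside 4 and 1 pNE_H-only regions. HOXD4 had 4 of 44. CDX2, a caudal homeobox gene upstream of HOX genes, had 4 of 38, and its window had 28 open regions in pNE_M and in pNE_H, 23 in DE, 20 in hPSC and pNE_T, 19 in pNE, aNE_T and aNE_M, and 15 in aNE and aNE_H. The 28 in pNE_M include the 4 chosen by the rule, and the 28 in pNE_H include 1 exclusive region. The 4 CDX2 regions were 195, 276, 397 and 161 bp wide, all outside its body.

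**Figure D5:**
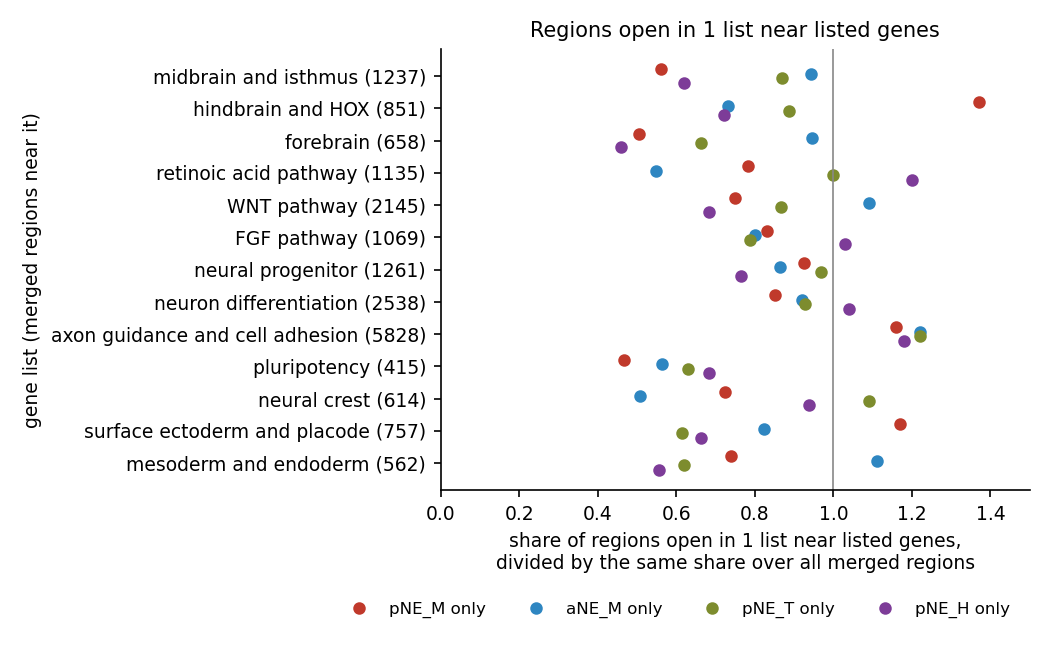
Share of merged regions near the genes of 13 lists that were open in 1 list alone, divided by the same share over all merged regions, for pNE_M, aNE_M, pNE_T and pNE_H. The pNE_M points lie highest for hindbrain and HOX genes (1.37) and lowest for pluripotency genes (0.47), with midbrain and isthmus genes at 0.56.

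Retinoic acid pathway genes, relevant because TTNPB acts on retinoic acid receptors, did not stand above the overall share. In 24 genes, 32 of 1135 merged regions (2.82%) were pNE_M-only, 0.78 times the share over all regions, against 1.20 for pNE_H-only regions. RARB, a receptor gene that is itself induced by retinoic acid, had 9 of 193, all inside its body. Its open regions numbered 34 in hPSC, 50 in DE, 35 in aNE, 57 in pNE, 47 in aNE_T, 45 in aNE_M, 48 in aNE_H, 80 in pNE_T, 74 in pNE_M and 131 in pNE_H. The 3 posterior-derived day 4 lists were above all others, and the exclusive regions numbered 43 for pNE_H, 16 for pNE_T and 9 for pNE_M. TSHZ1, a zinc finger gene, had 4 of 58, with 27 regions open in pNE_M, 21 in pNE_T, 40 in pNE_H and 15 or fewer in every other list. ALDH1A2, which makes retinoic acid, had 3 of 30, among them a 630 bp region at chr15:58063630-58064259, 965 bp from the start of ALDH1A2-AS1. A 585 bp region at chr10:93117996-93118580 lay 44102 bp from the start of CYP26A1, a retinoic acid-degrading enzyme, and was also within the window of CYP26C1. Both CYP26 genes had 2.

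The WNT pathway genes had 58 pNE_M-only regions of 2145 (2.70%, 0.75 times the overall share), and 28 of 47 genes had at least 1. ROR2, a WNT5A receptor, had 6 of 103, and SFRP1, a secreted WNT inhibitor, 5 of 57. DKK2, another secreted WNT modulator, had 4 of 26, all within its body, and none exclusive to aNE_M, pNE_T or pNE_H. Its open regions numbered 19 in pNE_M, 16 in pNE_H, 13 in aNE_M, 11 in pNE_T and 8 to 11 in the other lists. The 19 include the 4 chosen by the rule, and the lead of pNE_M over pNE_H is smaller than these. APC, which holds beta-catenin in check, and the receptor gene FZD10 had 3 each. The FGF pathway genes had 32 of 1069 (2.99%), 0.83 times the overall share. Of these, 12 lay near FGF14, an intracellular FGF family member that binds sodium channels, 4 near FGF12 and 3 near ETV5, a target of FGF signalling. The merged regions near these FGF pathway genes are not given here, so the counts do not measure concentration.

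Genes of axon guidance and adhesion gave the largest number, 243 of 5828 merged regions (4.17%, 3.69 to 4.71%), in 44 of 46 genes (95.7%). The ratio to the overall share was 1.16, and it was 1.22 for aNE_M-only, 1.22 for pNE_T-only and 1.18 for pNE_H-only regions, so this list did not set pNE_M apart. PTPRD, a receptor phosphatase of synapses, had 20 of 339, CDH12, a cadherin, 16 of 116, and GPC5, a glypican, 15 of 214. At CDH12 the open regions numbered 57 in pNE_M, 70 in pNE_H, 41 in pNE_T, 26 to 33 in the anterior-derived day 4 lists and 17 to 34 in the 4 earlier lists. The 57 include the 16 pNE_M-only regions, and pNE_M exceeded pNE_T by no more than these. Neuron differentiation genes held 78 of 2538 (3.07%), with 19 at NRXN3, a presynaptic adhesion gene, and 13 at RBFOX1, a neuronal splicing factor. The ratio to the overall share was 0.85, against 0.92 for aNE_M-only, 0.93 for pNE_T-only and 1.04 for pNE_H-only regions. Neural progenitor genes held 42 of 1261 (3.33%, 0.92 times the overall share), among them 5 at SOX5, 4 each at NOTCH2, LIN28B and SOX6, and 3 at SOX2. The merged regions near these neuron and progenitor genes are not given here, so the counts do not measure concentration.

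Lists of other cell types were counted in the same way. Surface ectoderm and placode genes had 32 of 757 merged regions (4.23%, 3.01 to 5.91%), 1.17 times the overall share, in 14 of 18 genes. For aNE_M-only, pNE_T-only and pNE_H-only regions the ratio was 0.82, 0.61 and 0.66. Without EYA1 and TP63 the share for pNE_M-only regions was 2.79%, below that of all regions, so the position of the list rested on this pair of genes. It was also below that of all regions without the pNE_H list (6.42% against 6.50%). EYA1, a placode and ear gene, had 10 of 85, and its window held 43 open regions in pNE_M, 50 in pNE_H, 37 in aNE_H and 22 to 34 in the other lists. The 43 include the 10, and the lead of pNE_M over aNE_H is smaller than these. Of these 10, 5 formed a chain at chr8:71489122-71496901, in which 6 of 7 merged regions were open in pNE_M and none in pNE_H. The 5 are closed in pNE_H by the rule, so only the remaining regions could have been open there. TP63, an epithelial progenitor factor, had 5 of 63, all inside its body and 114 to 185 bp wide. Its window held 27 open regions in pNE_M (these 5 included), 27 in DE and 39 in pNE_H. KRT8, a simple epithelial keratin, had 3 of 40. Neural crest genes had 16 of 614 (2.61%), mesoderm and endoderm genes 15 of 562 (2.67%), forebrain genes 12 of 658 (1.82%) and pluripotency genes 7 of 415 (1.69%). The part that other cell types in the cultures played in these counts was not tested.

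By nearest gene, the pNE_M-only regions were thinly spread. Of 19126 protein-coding genes 12945 had none, 2990 had 1, 2225 had 2 to 4, 688 had 5 to 9, and 278 had at least 10 and held 3936 regions between them. The 10 with the most were CSMD3 (38 of 321 merged regions), GPC5 (37 of 471), LINGO2 (35 of 322), TENM3 (34 of 599), PTPRD (33 of 453), CDH8 (29 of 380), KCNT2 (27 of 190), SI (26 of 189), GRM7 (24 of 245) and PCDH9 (24 of 422). PTPRD encodes a synaptic receptor phosphatase, CDH8 and PCDH9 encode cadherins, GRM7 a glutamate receptor and SI an intestinal sugar-digesting enzyme. For 9 of these 10 the pNE_H-only regions outnumbered the pNE_M-only ones, for instance 101 against 24 at PCDH9, and at KCNT2, a potassium channel gene, both numbered 27.

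Among 9760 genes with at least 10 merged regions, the largest shares of pNE_M-only regions belonged to genes with few regions. FAF2, a ubiquitin-pathway gene, had 5 of 11 (45.45%), with 1 each exclusive to aNE_M and pNE_H. HOXC6 had 5 of 13 (38.46%), with none exclusive to aNE_M, pNE_T or pNE_H and 1 to hPSC. NUP160, a nuclear pore gene, had 4 of 11. NMD3, a ribosome export factor, had 8 of 24, of which 5 formed a chain at chr3:161171298-161178315 outside any protein-coding gene. That chain held 6 merged regions, all open in pNE_M. The 5 are closed in the other lists by the rule. The remaining region was also open in hPSC, DE, aNE, pNE, aNE_M, aNE_H and pNE_H. OTULINL, ASPM, NLRP14, KCNMB3, SLCO1B1 and XKR5 had 3 or 4 each, of 10 to 14 regions. These shares are the highest of many genes and rest on few regions.

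Several further chains of 4 pNE_M-only regions, which are closed in the other lists by the rule, held no further merged region. They lay at chr6:60546205-60548605 and chr13:85734258-85741402, both outside protein-coding genes, and in KCNAB1 (chr3:156223214-156231717), FBXL7 (chr5:15513468-15522728) and EPHA6 (chr3:97330528-97340280), which encodes an ephrin receptor. In EXOC6B (chr2:72631561-72639621), 4 pNE_M-only regions lay with 4 pNE_H-only regions within 8061 bp. The widest pNE_M-only regions were 1258 bp at chr10:25849159-25850416, outside genes, 1171 bp at chr14:39161837-39163007 in TRAPPC6B, 1160 bp at chr15:98397865-98399024 in LINC02351, 1106 bp at chr2:139477558-139478663, outside genes, and 1079 bp at chr3:4552554-4553632 in ITPR1. The last had a pNE_H peak 10 bp away, while at TRAPPC6B the nearest peak of another list was 4062 bp away. Within 1 kb of a start the widest was 716 bp at chr12:90917356-90918071, over the start of LINC00615, with the nearest other peak at 7542 bp.

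Of 33558 promoter windows (250 bases before and 50 after a RefSeq start), 80 overlapped a pNE_M-only region, 28 of protein-coding genes and 52 of lncRNA genes. HOXC4 and HOXC5 share the same window, which was counted for each gene. The protein-coding genes included TP63, COL17A1, LGALS7, LGALS7B, SERPINB2, HOXC4, HOXC5, GDF2, LY6G6D, the sensory genes GNAT3, OR56B2, OR2AG2 and OR52E5, and the milk protein gene LALBA. The examples were chosen after the list was seen. The median GC content of the 80 windows was 47.8%, against 58.7% of all windows, 63.7% of windows with any peak and 44.7% of windows with no peak. It was 45.8% for the 86 windows with a pNE_T-only region, 47.0% for the 301 with a pNE_H-only region and 50.0% for the 39 with an aNE_M-only region, so all 4 sets lay below the median of all windows.

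Motifs were counted on both strands of these windows. The E-box CAGCTG, bound by basic helix-loop-helix factors, occurred in 25 of the 80 (31.2%, 22.1 to 42.1%), against 18.0% of all windows and 16.7% of windows with no peak. It occurred in 20.5% with an aNE_M-only, 18.6% with a pNE_T-only and 19.9% with a pNE_H-only region. The 25 include the window shared by HOXC4 and HOXC5, counted for each gene. Some other windows overlap in part, so the intervals treat some shared sequence as independent. The AP-1 motif TGANTCA occurred in 15 (18.8%), against 7.68% of all windows and 11.9% with no peak. It occurred in 12.8% with an aNE_M-only, 19.8% with a pNE_T-only and 18.3% with a pNE_H-only region. The nuclear receptor hexamer AGGTCA, of which retinoic acid receptors bind pairs, occurred in 20 (25.0%), against 13.8% of all windows, 19.5% with no peak, 15.1% with a pNE_T-only, 21.3% with a pNE_H-only and 25.6% with an aNE_M-only region. No window of the 80 held 2 such hexamers 5 bases apart in direct repeat. Only 2 of all 33558 windows did, so this absence says nothing about the 80. The TFAP2 motif GCCNNNGGC occurred in 6 (7.50%), against 23.3% of all and 9.26% of windows with no peak. It was also below the share of all windows with an aNE_M-only (15.4%), a pNE_T-only (10.5%) and a pNE_H-only region (8.64%). TCF/LEF (CTTTGAT) was found in 4 (5.00%, 1.96 to 12.2%) against 2.61% of all windows and 4.49% of windows with no peak. It was found in 2.56% with an aNE_M-only, 5.81% with a pNE_T-only and 3.32% with a pNE_H-only region. The HOX-PBX motif TGATTNAT was found in 3 (3.75%, 1.28 to 10.4%), against 2.84% of all windows and 5.21% of windows with no peak. Its share was 5.13% with an aNE_M-only, 5.81% with a pNE_T-only and 10.3% with a pNE_H-only region. Of the 22 motifs counted, these are the ones described here, chosen after their values were seen, and a match is a description of letters and not a bound site.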

How the data were processed

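The authors deposited 1 list of peak positions per group (chromosome, start and end, with no other column), so the deposited values are coordinates and hold no count, score or signal. Per the submitters' processing notes the build was hg38, and FastQC, Bowtie2, MACS2, bedtools, featureCounts, edgeR and deepTools were used. Their versions, the peak threshold and the way the 3 replicates of a group were combined are not given in the sources used here. A threshold that differed between lists would move every count of exclusive regions. The depth of the libraries is unknown.

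Merging, distances, widths and gene windows were computed with Python 3.11.15, numpy 2.4.6 and pandas 2.3.3, with Wilson intervals from scipy 1.17.1. The code was tested on simulated lists. Coordinates are printed 1-based. Gene bodies and starts came from RefSeq (GRCh38.p14). The table of starts is not complete and has none on chromosome 8. No genome sequence was used here, so GC content and motifs of the regions themselves were not computed, and those of promoter windows were used instead.

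The members, the gene lists and the tests were chosen with earlier results of these data known. Named genes were the 10 protein-coding genes with the most pNE_M-only regions by nearest gene, the 10 with the largest share among those with at least 10 merged regions, and up to 5 genes of each of the 13 lists with the most in the gene body and 50 kb on each side. Named regions were the 5 widest over 1 kb from a start, the 5 widest within 1 kb, and the widest in the windows of named midbrain, retinoic acid and WNT genes. Some genes that this rule takes are not reported here. Other genes and regions were named after their values were seen. Alternatives were openness by 50% cover, the widest 50% of peaks, lists cut to equal length by width, windows of 500 bp, a margin of 500 bp to other lists, and each other list left out in turn. Counts that moved by less than a factor of 1.5 were treated as unchanged. Leaving HOX, HOXC, or EYA1 and TP63 out of gene lists was chosen after seeing the data.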

Additional observations from a re-analysis of the deposited data

Results flagged for a closer look

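The X chromosome was not used by the rule, which covered chromosomes 1 to 22. Applied to it in the same way, 705 of 16790 merged regions were open in pNE_M only (4.20%, 3.91 to 4.51%), beside 3.61% on the autosomes. The lists have no control without a peak signal, and this value stands as a count on a chromosome outside the main measurement.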

How the results depend on the processing

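The number of pNE_M-only regions, 17167, was 19958 when peaks had to cover 50% of a region, 8265 with the widest 50% of each list, 15768 at equal list length, 14787 with 500 bp windows and 12794 with no other peak within 500 bp. Leaving out 1 other list gave 17262 to 28104, the last without pNE_H. The share within 1 kb of a start, 1.66%, was 2.70% with 500 bp windows and 1.18% with the 500 bp margin, and 1.66 to 1.83% with 1 list left out. The share inside protein-coding genes, 44.49%, was 43.64% with the margin, and 43.77 to 44.75% with 1 list left out. The share with another list's peak within 1 kb, 39.44%, was 47.91% with 50% cover, 21.91% with the widest 50%, 31.49% at equal length, 36.93% with 500 bp windows, 18.74% with the margin, which removes such neighbours by construction, and 35.6 to 39.37% with 1 list left out. Genes with at least 1 region, 9068, became 5023 with 10 kb on each side and 6181 by nearest gene. The share of the HOX clusters, 8.16%, ranged from 5.58 to 12.1% over the settings other than leaving out a list, with 8.19 to 13.7% when 1 list was left out, and was above the share over all regions in each. The share near midbrain genes ranged from 1.27 to 2.59%, with 2.01 to 4.16% when 1 list was left out, and was below it in each. That near hindbrain and HOX genes, 4.94%, ranged from 3.06 to 8.01%, with 4.95 to 8.88% when 1 list was left out. It was above the share over all regions in each, for instance 3.06% against 2.69% with the margin. Without the HOX genes it was not, at 3.41% against 3.61%. With 1 list left out, the upper end of all 3 shares was without pNE_H, where the share over all regions was 6.50%. The surface ectoderm list, 4.23%, was above it with 50% cover (4.89% against 4.19%) and below it with the widest 50% (2.83% against 3.42%) and without pNE_H (6.42% against 6.50%). For the other moved values the cause was not tested. No paired analysis was possible because each group has 1 list without values per replicate. The GC content of the regions was not run, for want of a genome.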

Other observations

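Hairpins of 13 microRNA genes lay within 1 kb of a pNE_M-only region. The share of all microRNA genes, and the same share for other sets of regions, is not given here. The 13 are thus a list of positions and no measure of frequency. One, MIR4465 on chromosome 6 (140683814 to 140683883), overlapped a region, and MIR8079, MIR4263 and MIR3141 were 38, 44 and 46 bp away. MIR10A, in the HOXB cluster, was 297 bp away.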
